A study of Mus musculus with 25 samples.

Results

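The genes described here are 10 transcriptional targets of p53: Cdkn1a, Phlda3, Bax, Eda2r, Mdm2, Ccng1, Zmat3, Aen, Plk2 and Polk. They were selected by name from p53 target genes that had been seen to be higher in the livers of older Ncoa5+/- mice than in those of wild type mice, in these same data. The difference between the genotypes at 39 weeks therefore chose the members and is given below as a description, without a test. Each of the 10 matched 1 locus in each cohort, out of 46499 loci at 20 weeks and 46052 at 39 weeks. A locus entered a test when its mean over the cohort reached 1 FPKM (a level in sequenced fragments, scaled for transcript length and library size). That filter passed 10963 loci and 6 of the 10 genes at 20 weeks, and 11441 loci and all 10 genes at 39 weeks. Cdkn1a at 20 weeks, and Phlda3, Eda2r and Polk at 39 weeks, were under 1 FPKM in every wild type group of their cohort and passed only through the Ncoa5+/- mice.

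The livers came from 25 C57BL/6 mice that were either wild type or labelled Ncoa5+/-, with 1 targeted copy of the nuclear receptor coactivator gene Ncoa5. The younger cohort, aged 20 weeks, held 4 Ncoa5+/- and 4 wild type mice, none of them given metformin. The older cohort, aged 39 weeks, held 5 untreated Ncoa5+/- mice, 4 untreated wild type mice, 5 Ncoa5+/- mice given metformin and 3 wild type mice given metformin. The treated animals drank water with metformin, which lowers blood glucose, for 31 weeks beginning at week 8, at roughly 250 mg per kg of body weight daily. All mice received a standard diet, RNA was taken from whole liver tissue, and each library is 1 mouse. The cohorts differed in instrument, library preparation and normalization, so age and cohort cannot be told apart and no comparison crosses them. The level of Ncoa5 itself did not separate the labels: untreated mice at 39 weeks labelled Ncoa5+/- had 3.72 ± 0.714 FPKM against 4.17 ± 0.445 FPKM in wild type mice (SD, n = 5 and 4). At 20 weeks the means of Ncoa5 were 3.85 ± 0.884 and 4.01 ± 0.944 FPKM (n = 4 and 4). Directions between genotypes therefore depend on the labels alone.

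The protein p53 is a transcription factor that is kept scarce in unstressed cells and accumulates after DNA damage and other stresses. It binds DNA as a tetramer, at pairs of half-sites, and switches on genes that halt the cell cycle, repair DNA, start apoptosis or turn p53 itself down. In the liver, hepatocytes with active p53 are best known for raising p21, the product of Cdkn1a, and for leaving the cell cycle.

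The promoters of the members were searched for the p53 half-site consensus, a 10-base motif that reads the same on both strands. Since the members were chosen as p53 targets, the counts below are a description and add no separate evidence that p53 acts on them. The RefSeq windows (GRCm38.p6) run from 250 bases before a transcription start to 50 bases after it, and 9 of the 10 genes had at least 1 window, 12 windows in all. A half-site without a mismatch lay in 7 of the 12 windows, of 6 genes (Cdkn1a, Ccng1, Bax, Mdm2, Aen and Polk), against 8.36% of all 32851 windows. The 2 windows of Aen overlap and hold the same site, which is counted in both. An adjacent pair of half-sites with at most 2 mismatches, which overlaps the single half-sites in these windows, was found in 2 of the 12 windows, against 0.326% of all windows. These were the upstream window of Cdkn1a and the window of Ccng1. The pair begins 51 bases before the upstream start of Cdkn1a and 195 bases before that of Ccng1, with 1 mismatch in each. The window of a second, downstream start of Cdkn1a, chr17:29093519-29093818, held 0 half-sites and 0 pairs. The sequences before the start, for Cdkn1a the upstream one, are shown for Cdkn1a and Ccng1, which carry the pair. Mdm2 is shown as well, with a single half-site 186 bases before the start shown. They are chr17:29090729-29090978 on the plus strand for Cdkn1a, chr11:40755287-40755536 on the minus strand for Ccng1 and chr10:117710759-117711008 on the minus strand for Mdm2. Capitals mark the matches to the half-site or the pair, and a match in letters is a description of the sequence, not a measurement of binding.
Cdkn1a: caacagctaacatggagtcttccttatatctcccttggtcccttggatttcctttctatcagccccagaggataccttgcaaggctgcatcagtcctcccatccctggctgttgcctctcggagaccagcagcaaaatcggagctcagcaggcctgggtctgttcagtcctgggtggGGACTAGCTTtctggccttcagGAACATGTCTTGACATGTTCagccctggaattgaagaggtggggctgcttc
Ccng1: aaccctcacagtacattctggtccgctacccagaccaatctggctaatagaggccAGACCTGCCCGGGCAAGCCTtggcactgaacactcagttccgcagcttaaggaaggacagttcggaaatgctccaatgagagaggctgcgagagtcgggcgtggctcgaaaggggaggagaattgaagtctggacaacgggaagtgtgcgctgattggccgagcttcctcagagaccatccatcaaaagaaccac
Mdm2: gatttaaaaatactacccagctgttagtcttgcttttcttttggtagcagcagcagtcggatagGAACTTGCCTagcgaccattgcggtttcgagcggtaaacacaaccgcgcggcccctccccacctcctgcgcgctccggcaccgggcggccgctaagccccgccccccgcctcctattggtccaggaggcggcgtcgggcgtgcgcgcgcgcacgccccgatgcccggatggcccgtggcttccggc

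At 39 weeks each of the 10 genes was higher in every untreated Ncoa5+/- mouse than in every untreated wild type mouse. Across all tested loci 1.09% had that property, and the share of the members is a consequence of how they were chosen. The ratio of mean FPKM ran from 1.61 for Mdm2 to 22.3 for Cdkn1a, with a median of 2.41. The largest ratios were those of Cdkn1a, Phlda3 and Eda2r, whose untreated wild type means were 1.81, 0.933 and 0.327 FPKM. Polk and Zmat3 had wild type means as low, 0.838 and 1.37 FPKM, and ratios of 2.09 and 2.39. In whole tissue, a change in RNA per cell and a change in the number of cells that carry the RNA cannot be told apart.

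**Figure D1:**
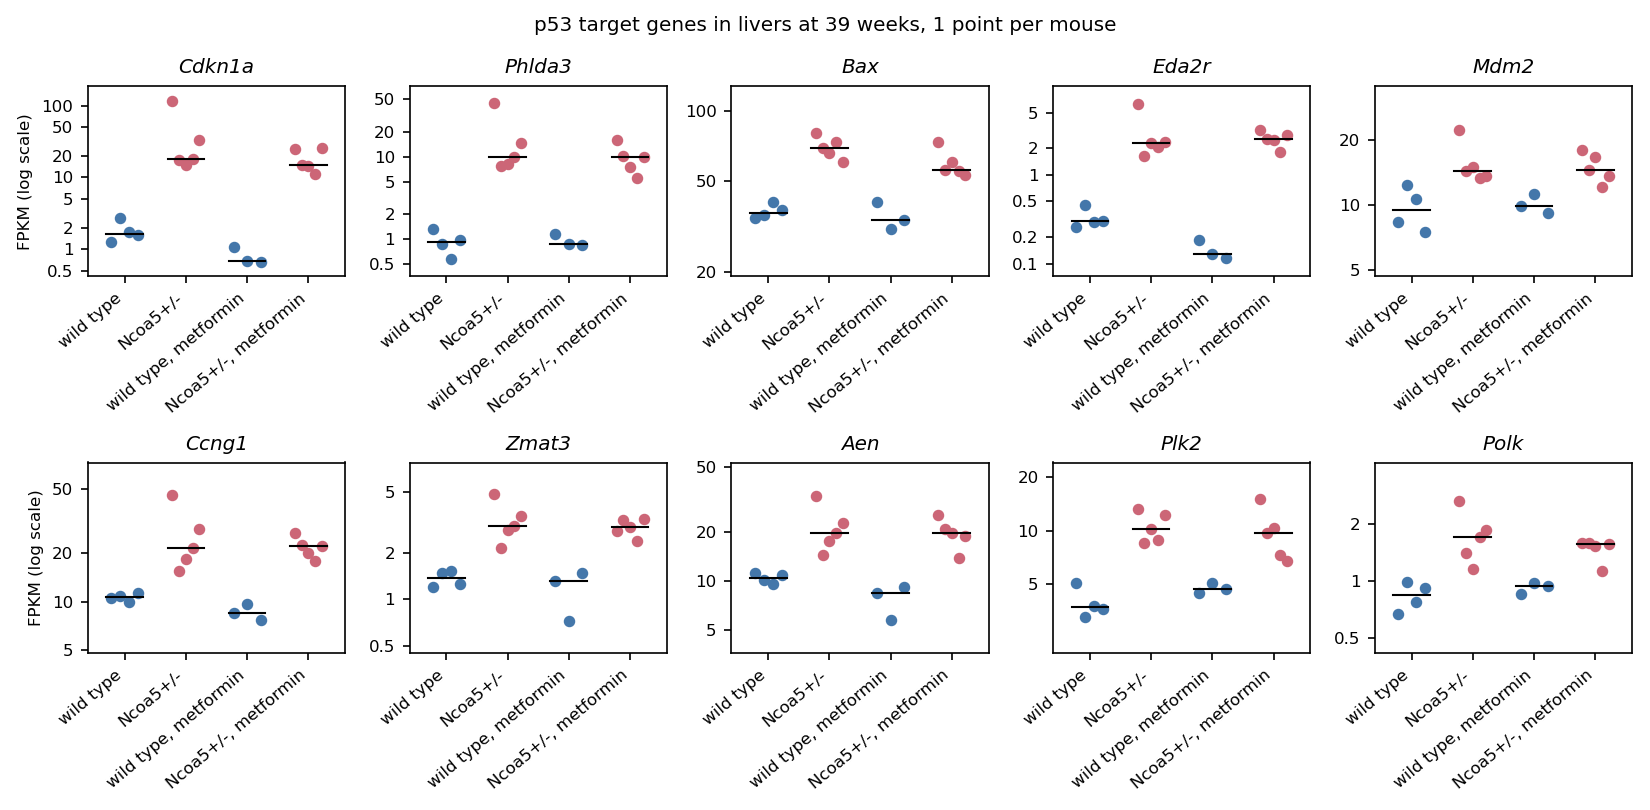
FPKM of the 10 genes at 39 weeks on log axes, 1 panel per gene, with 1 point per mouse in replicate order (blue wild type, red Ncoa5+/-) and a line at each group's median. In every panel the red points lie above the blue points of the same treatment, and the first untreated Ncoa5+/- mouse is the highest point of its group.

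Cdkn1a, Ccng1 and Plk2 act on the cell cycle. Cdkn1a, whose product p21 inhibits cyclin-dependent kinases, was measured at 117, 17.7, 15.0, 18.3 and 33.5 FPKM in the 5 untreated Ncoa5+/- mice. In the 4 untreated wild type mice it was at 1.28, 2.68, 1.71 and 1.56 FPKM. The lowest Ncoa5+/- mouse was thus far above the highest wild type mouse, while 1 of the 5, replicate 1, stood well apart from the others of its group. The means were 40.3 ± 43.6 and 1.81 ± 0.608 FPKM (SD, n = 5 and 4), and the difference of mean log2(FPKM + 1) was 3.43 ± 0.45 (SE). Without replicate 1 the mean of the remaining Ncoa5+/- mice was 21.1 ± 8.39 FPKM, 11.7 times the wild type mean.

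Ccng1 encodes cyclin G1, an atypical cyclin that acts on Mdm2 through a phosphatase. Its levels were 45.5, 15.4, 18.5, 21.4 and 28.0 FPKM in untreated Ncoa5+/- mice and 10.5, 10.8, 9.91 and 11.3 FPKM in wild type mice. The wild type values were close together, and the Ncoa5+/- values spread 2.95-fold from lowest to highest, with replicate 1 again at the top. Plk2, a stress-responsive polo-like kinase, was at 13.3, 8.49, 10.2, 8.83 and 12.2 FPKM against 5.03, 3.25, 3.76 and 3.60 FPKM. The log2 differences were 1.11 ± 0.22 for Ccng1 and 1.24 ± 0.19 for Plk2.

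Among genes of apoptosis and survival signalling, Phlda3 differed most. Phlda3, a small repressor of the survival kinase Akt, was at 45.1, 7.67, 8.23, 9.97 and 14.6 FPKM in untreated Ncoa5+/- mice. Wild type mice held 1.32, 0.865, 0.566 and 0.980 FPKM of it, so the groups were well separated (log2 difference 2.92 ± 0.39). Its ratio to the wild type mean was 18.3 with replicate 1 and 10.8 without it. Eda2r, a receptor of the tumour necrosis factor receptor family, went from 0.260, 0.452, 0.290 and 0.305 FPKM in wild type mice to 6.24, 1.62, 2.26, 2.07 and 2.36 FPKM. This receptor RNA remained scarce in absolute terms even in Ncoa5+/- mice, and its log2 difference of 1.46 ± 0.22 is compressed by the pseudocount.

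Bax, which permeabilises the mitochondrial outer membrane in apoptosis, had the highest mean level of the 10 in every group at 39 weeks. It was at 80.6, 69.1, 66.3, 73.8 and 60.3 FPKM in untreated Ncoa5+/- mice while wild type mice had 34.6, 35.5, 40.6 and 37.3 FPKM. Both groups were tight, and the log2 difference of 0.90 ± 0.11 had the smallest standard error of the 10. The apoptotic nuclease gene Aen was at 33.3, 14.4, 17.6, 19.6 and 22.7 FPKM against 11.2, 10.1, 9.49 and 10.8 FPKM (log2 difference 0.93 ± 0.20). For Zmat3, a zinc finger gene whose product binds RNA, the values were 4.89, 2.17, 2.83, 3.02 and 3.52 FPKM against 1.2, 1.49, 1.54 and 1.26 FPKM (0.82 ± 0.15). In both genes replicate 1 was the highest and replicate 2 the lowest of the Ncoa5+/- group.

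Mdm2, the ubiquitin ligase that degrades p53, had the smallest ratio. Its levels were 22.1, 14.3, 15.0, 13.3 and 13.6 FPKM in untreated Ncoa5+/- mice and 8.33, 12.4, 10.7 and 7.52 FPKM in wild type mice. Only a narrow gap separated the highest wild type mouse from the lowest Ncoa5+/- mouse (log2 difference 0.64 ± 0.16). Polk, the gene of the DNA polymerase kappa that copies past damaged bases, was at 2.62, 1.40, 1.16, 1.70 and 1.86 FPKM against 0.669, 0.988, 0.776 and 0.917 FPKM (0.56 ± 0.13).

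Over the 10 members the median log2 difference was 1.02 in untreated mice at 39 weeks, while the median of all tested loci was -0.017 and 44.5% of loci had a positive difference. Of all 11441 loci, 30 passed limma's adjusted threshold in that comparison, or 0.262%. The choice of members used this contrast, so nothing is read from these figures beyond the sizes.

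Metformin-treated mice of the older cohort showed the same order of genotypes. Every treated Ncoa5+/- mouse was above every treated wild type mouse in all 10 genes, which 2% of tested loci did. The 5 treated Ncoa5+/- mice had 24.5, 15.0, 14.4, 11.3 and 25.7 FPKM of Cdkn1a, and the 3 treated wild type mice had 1.06, 0.684 and 0.673 FPKM. Phlda3 was at 15.9, 10.2, 7.42, 5.45 and 9.78 FPKM against 1.15, 0.879 and 0.837 FPKM. Ratios of means under the drug ran from 1.48 for Mdm2 to 22.6 for Cdkn1a, and the log2 differences from 0.36 ± 0.14 for Polk to 3.35 ± 0.49 for Cdkn1a. This contrast is also counted as used by the choice of members and has no test here.

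Ranking the 4 older groups by median FPKM put both wild type groups below both Ncoa5+/- groups in all 10 genes. Both genotype contrasts are counted as used by the choice of members, so this order of genotypes is a description. Within a genotype the place of the treated group was not fixed. Treated wild type mice were lowest in 7 genes and untreated wild type mice in Mdm2, Plk2 and Polk. Untreated Ncoa5+/- mice were highest in 6 genes, and treated Ncoa5+/- mice in Eda2r, Mdm2, Ccng1 and Aen. These neighbours in the order overlapped in every gene for the Ncoa5+/- groups and in 6 genes for the wild type groups.

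At 20 weeks the question is whether the same targets already differed in younger mice, which took no part in choosing them. All 10 genes had a higher mean in Ncoa5+/- mice, by ratios of 1.22 to 7.74. The log2 difference was positive in each of the 5 tested genes other than Cdkn1a, and in 54.4% of all tested loci. No gene had groups without overlap, compared with 2.96% of all tested loci. None of the 6 tested genes passed limma's threshold, and neither did any of the 10963 loci (0%), of which 820 had an unadjusted p under 0.05. The levels were uneven over the young Ncoa5+/- mice, with replicates 1 and 3 the high ones in most genes.

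**Figure D2:**
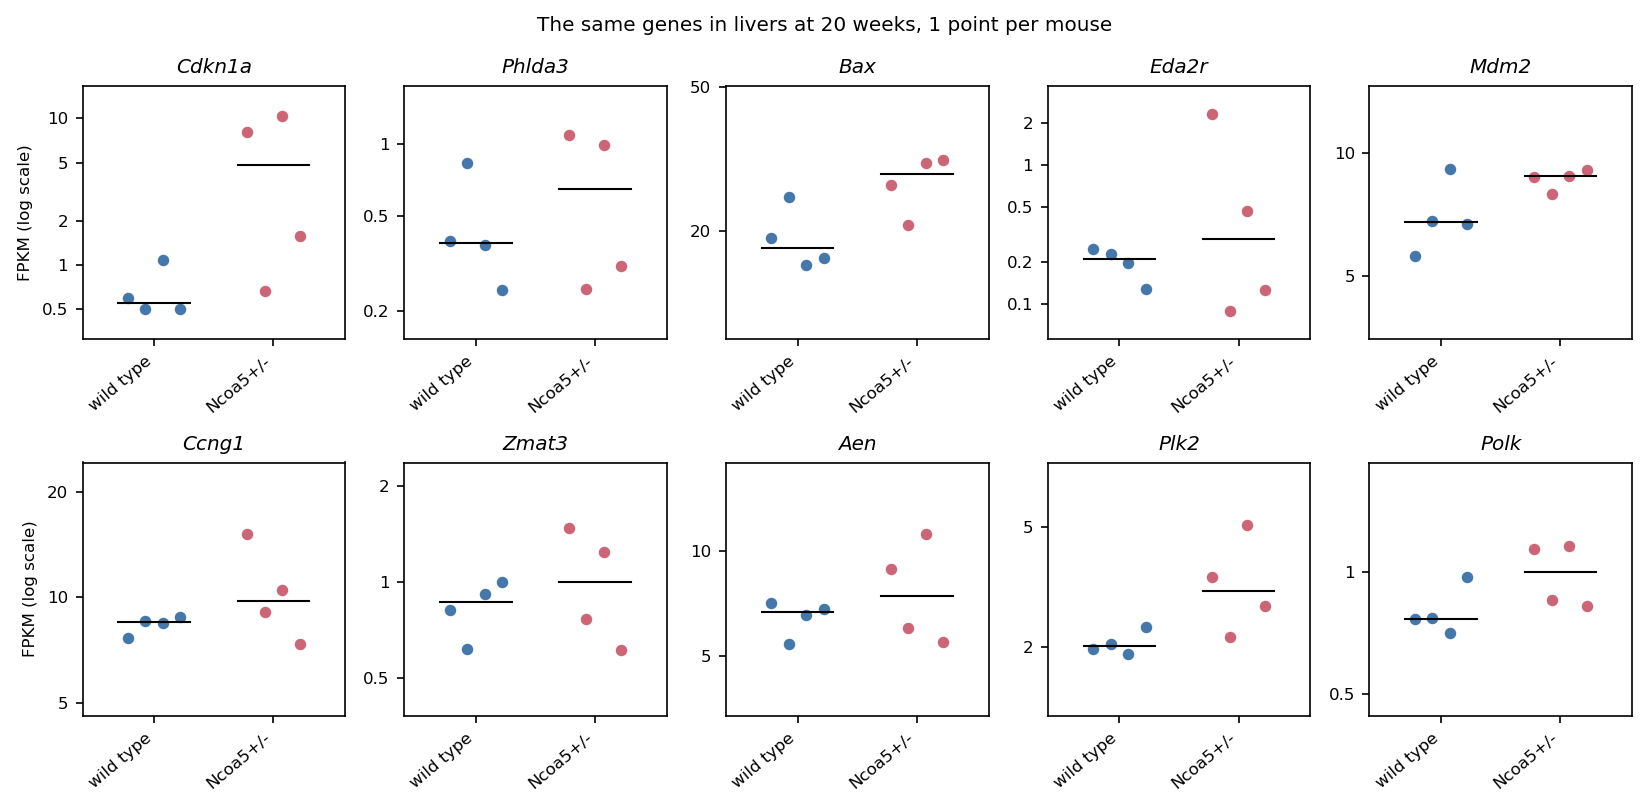
FPKM of the 10 genes at 20 weeks on log axes, 1 panel per gene, with 1 point per mouse in replicate order (blue wild type, red Ncoa5+/-) and a line at each group's median. The red points of replicates 1 and 3 are above all blue points in 9 of the 10 panels, the exception being Mdm2.

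Cdkn1a was at 8.04, 0.666, 10.4 and 1.58 FPKM in the 4 young Ncoa5+/- mice and wild type mice had 0.592, 0.499, 1.08 and 0.499 FPKM. Replicates 1 and 3 were far above the wild type range, replicate 4 was a little above it, and replicate 2 was inside it. The log2 difference was 1.47 ± 0.58 (limma, 95% interval 0.16 to 2.78, unadjusted p = 0.0316, adjusted p = 0.603). With a wild type mean of 0.667 FPKM, Cdkn1a was among the tested loci only because it was high in Ncoa5+/- mice, so nothing is read from this p. Eda2r showed the same unevenness at a much lower level, with 2.31, 0.0889, 0.461 and 0.125 FPKM against 0.248, 0.226, 0.196 and 0.127 FPKM. For this receptor gene replicates 2 and 4 were below every wild type mouse.

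Bax was at 26.7, 20.8, 30.8 and 31.4 FPKM in young Ncoa5+/- mice while wild type mice had 19.1, 24.8, 16.1 and 16.8 FPKM. All but replicate 2 exceeded the wild type range (log2 difference 0.50 ± 0.18, limma unadjusted p = 0.0224, adjusted p = 0.603). The kinase gene Plk2 was at 3.41, 2.16, 5.08 and 2.74 FPKM against 1.98, 2.06, 1.91 and 2.34 FPKM (0.46 ± 0.19, unadjusted p = 0.0419, adjusted p = 0.603). Here too only replicate 2 fell inside the wild type range. Among the 5 tested genes other than Cdkn1a, Bax and Plk2 had an unadjusted limma p under 0.05.

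Ccng1 was at 15.2, 9.09, 10.5 and 7.35 FPKM against 7.65, 8.57, 8.46 and 8.77 FPKM, so that 3 young Ncoa5+/- mice were above the wild type range and 1 below it (0.26 ± 0.19). Aen was at 8.85, 5.99, 11.2 and 5.48 FPKM against 7.07, 5.39, 6.56 and 6.80 FPKM (0.21 ± 0.21). Mdm2 stood at 8.76, 7.96, 8.79 and 9.10 FPKM against 5.59, 6.83, 9.15 and 6.69 FPKM (0.28 ± 0.14). All 4 of these Mdm2 values were inside the wild type range, whose upper end was set by replicate 3. Over the 6 tested genes limma's adjusted p ran from 0.603 to 0.692.

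The other 4 genes had a mean under 1 FPKM in the younger cohort and were compared by two-sided exact permutation, which can reach 0.0286 with 4 against 4 mice. Phlda3 was at 1.09, 0.248, 0.987 and 0.307 FPKM in Ncoa5+/- mice against 0.391, 0.834, 0.376 and 0.244 FPKM (exact permutation p = 0.486). Zmat3 was at 1.48, 0.766, 1.24 and 0.610 FPKM against 0.817, 0.615, 0.918 and 0.999 FPKM (exact permutation p = 0.486). Both genes had replicates 1 and 3 above the wild type range and replicate 2 within it. Polk was at 1.14, 0.854, 1.16 and 0.825 FPKM against 0.766, 0.769, 0.709 and 0.970 FPKM (exact permutation p = 0.143), and for Eda2r the exact permutation p was 0.457.

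Replicates 1 and 3 were the highest pair of the young Ncoa5+/- group in 8 of the 10 genes, and each was above every wild type mouse in 9. Replicate 2 was above all wild type mice only in Ccng1, and replicate 4 in Cdkn1a, Bax and Plk2. No share over all tested loci is given for these counts by mouse. Nothing about the 10 genes in particular is therefore read from them. The authors' deposited table for this cohort, which gives pooled group values, also has all 10 genes higher in Ncoa5+/- mice. In the authors' deposited table, Cdkn1a (log2 fold change 2.92, q = 0.00413) and Eda2r (1.86, q = 0.0240) had a q-value under 0.05. In Eda2r replicate 1, and in Cdkn1a replicates 1 and 3, held most of the FPKM summed over the group.

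The effect of metformin in Ncoa5+/- mice asks whether treated livers held less of these RNAs. All 10 log2 differences, treated minus untreated, were negative, from -0.044 for Eda2r to -0.70 for Cdkn1a, with a median of -0.13. Over all tested loci the median was 0.0. None of the 10 genes and none of the 11441 loci passed limma's threshold (0%), while 1010 loci had an unadjusted p under 0.05. The untreated mice of this contrast are those by which the members were chosen, as genes high in them. The 10 negative signs and the p-values below are therefore a description. Phlda3, Eda2r and Polk were also tested only because of the Ncoa5+/- mice, and nothing is read from their p.

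**Figure D3:**
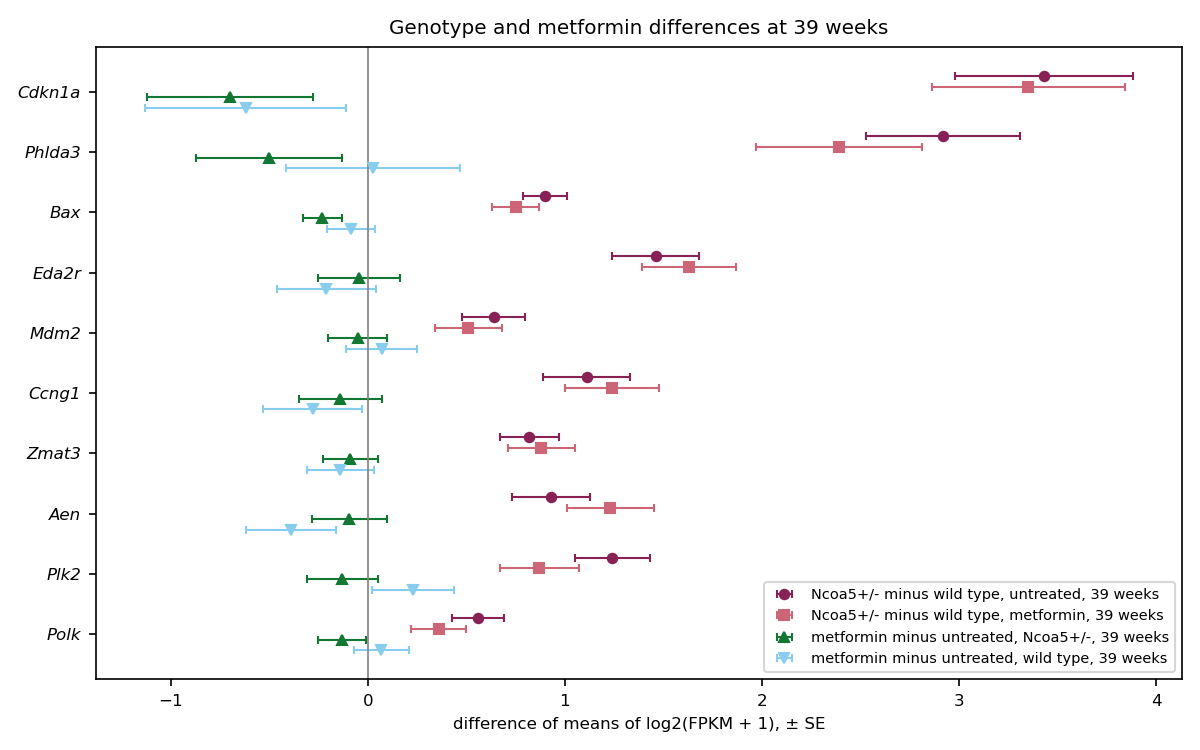
Differences of mean log2(FPKM + 1) with their standard errors from limma for the 10 genes at 39 weeks: Ncoa5+/- minus wild type in untreated (circles) and treated mice (squares), and metformin minus untreated in Ncoa5+/- (upward triangles) and wild type mice (downward triangles). The genotype differences lie between 0.36 and 3.43, and the metformin differences between -0.70 and 0.23.

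Cdkn1a had a mean of 18.2 ± 6.47 FPKM with metformin and 40.3 ± 43.6 FPKM without (SD, n = 5 and 5; log2 difference -0.70 ± 0.42, 95% interval -1.60 to 0.20, limma adjusted p = 0.654). The means of Phlda3 were 9.73 ± 3.92 and 17.1 ± 15.9 FPKM (-0.50 ± 0.37, interval -1.28 to 0.28, limma adjusted p = 0.708). In both genes 3 of the 5 treated mice were within the untreated range and the rest below it. Bax was at 73.6, 55.9, 60.4, 55.4 and 53.1 FPKM with metformin. Of these, 2 were within the untreated range of 60.3 to 80.6 FPKM and 3 below it, and the difference of -0.23 ± 0.10 had the smallest p of the 10 genes (limma unadjusted p = 0.0355, adjusted p = 0.542). For the remaining 7 genes limma's adjusted p ran from 0.769 to 0.974.

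Untreated Ncoa5+/- replicate 1 set much of the difference in means. With it, the ratio of treated to untreated means was under 1 in all 10 genes, from 0.45 for Cdkn1a to 0.955 for Mdm2. Without that mouse the ratio was under 1 in 5 genes, and the range was 0.86 for Cdkn1a to 1.23 for Eda2r. Ratios of medians over all mice were under 1 in 6 genes and over 1 in 3, Eda2r, Mdm2 and Ccng1, with Aen at 1.0. The ratio was at most 0.885 in all 3 forms for Bax and at most 0.86 for Cdkn1a.

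**Figure D4:**
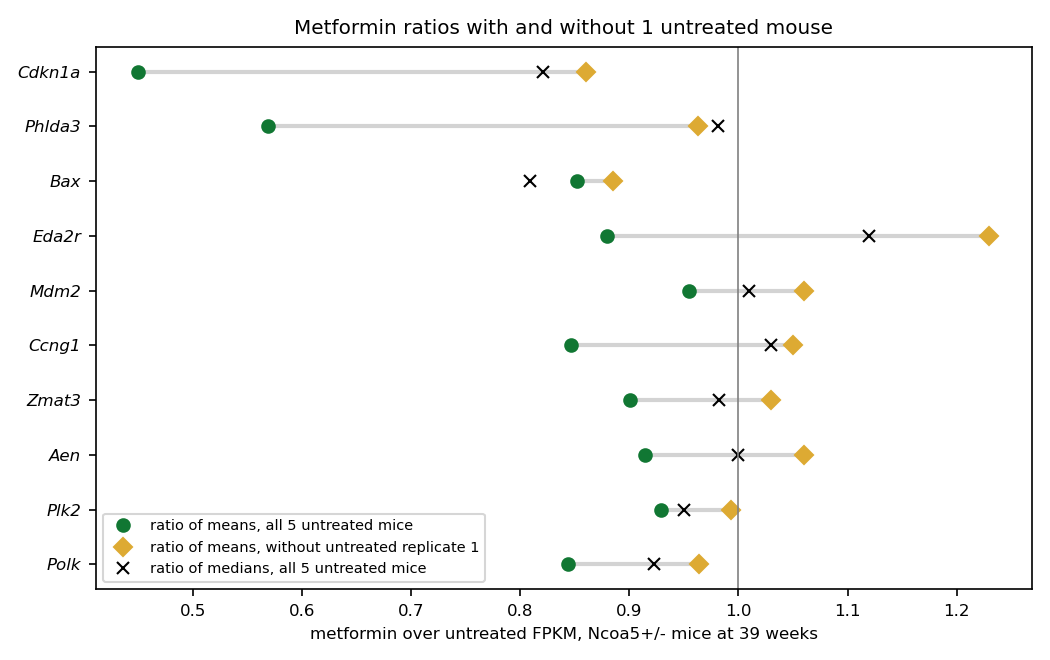
Ratio of metformin-treated to untreated FPKM in Ncoa5+/- mice at 39 weeks for the 10 genes: ratio of means with all 5 untreated mice (circles), ratio of means without untreated replicate 1 (diamonds), and ratio of medians (crosses). All circles are below 1, while 5 diamonds are above it.

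The authors' deposited table of the same contrast lists all 10 genes as lower with metformin. A q-value under 0.05 is given in the authors' deposited table to Cdkn1a (log2 fold change -1.11, q = 0.00668) and Phlda3 (-0.73, q = 0.00668). The authors' deposited table has a q-value of 0.33 for Ccng1 and of at least 0.999 for the other 7 genes. Cdkn1a and Phlda3 are the genes in which leaving out untreated replicate 1 moved the ratio of means most, to 0.86 and 0.963.

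In wild type mice metformin was compared at much lower levels of the low genes. Every treated wild type mouse was below every untreated one in 4 genes, Cdkn1a, Eda2r, Ccng1 and Aen, a property of 3.96% of tested loci. The wild type mice of both groups are in the genotype contrasts counted as used by the choice of members. This count and the p-values below are therefore a description. Cdkn1a was at 0.804 ± 0.218 FPKM with metformin against 1.81 ± 0.608 FPKM without (SD, n = 3 and 4; log2 difference -0.62 ± 0.51). Aen was at 8.38, 5.77 and 9.20 FPKM with metformin, under the untreated range of 9.49 to 11.2 FPKM (-0.39 ± 0.23). None of the 10 genes or the 11441 loci passed limma's threshold (0%, with 1070 loci at an unadjusted p under 0.05), and the adjusted p ran from 0.616 to 0.935 in the 7 genes other than Phlda3, Eda2r and Polk. Those 3 were under 1 FPKM in both wild type groups, where a difference is compressed by the pseudocount, and nothing is read from their p. The difference between the metformin effects of the genotypes ran from -0.53 ± 0.58 for Phlda3 to 0.30 ± 0.30 for Aen. It contains the genotype contrasts by which the members were chosen. Of all loci 0% passed limma's threshold, with 319 at an unadjusted p under 0.05. The limma adjusted p was 0.991 in each of the 7 genes other than Phlda3, Eda2r and Polk, whose p is again not read. A difference in response between genotypes was not detected, which does not show that there was none.

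Within the older Ncoa5+/- mice the targets varied together from mouse to mouse. These are the mice whose levels chose the members, so the relations below are a description of the members and no test is attached to them. After subtracting the mean of each treatment group, all 45 pairs of the 10 genes had a positive Pearson's r over the 10 mice, from 0.17 to 0.97 with a median of 0.82. Untreated replicate 1 was the highest of its group in all 10 genes. Among treated mice, replicate 1 was the highest in 8 genes, and replicate 4 was the lowest in 8. These counts by mouse have no share over all tested loci beside them. Whether they are particular to the 10 genes was not tested. The library of untreated replicate 1 also had 20435 loci above 0, the most of the cohort, where the others had 18930 to 20358. Its 50 highest loci took 55.2% of its FPKM, inside the range of its group.

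**Figure D5:**
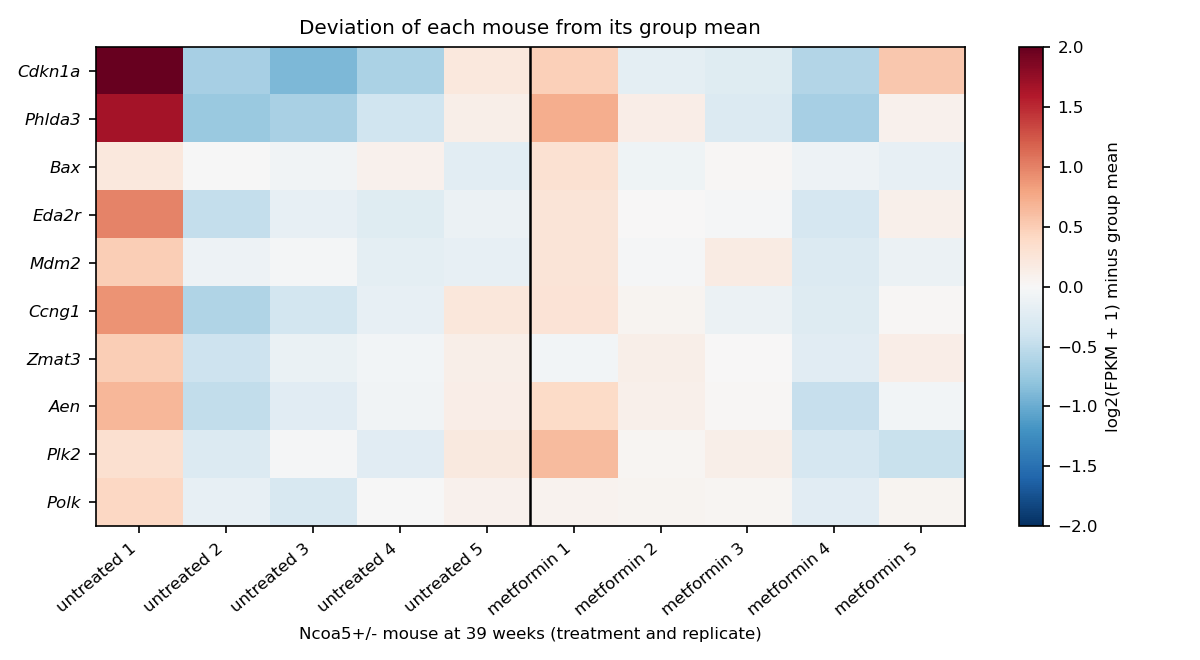
Deviation of log2(FPKM + 1) from the mean of the mouse's own treatment group, for the 10 genes (rows) in the 10 older Ncoa5+/- mice (columns), red above and blue below the mean. The column of untreated replicate 1 is red in all 10 rows, and that of metformin replicate 4 is blue in all 10.

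Against Cdkn1a, the correlation was closest for Phlda3 (r = 0.96, Spearman's rho = 0.85). Ccng1 followed with r = 0.93 and rho = 0.90, and Eda2r with r = 0.93 and rho = 0.87. Polk, Zmat3 and Aen had r of 0.90, 0.85 and 0.85. Mdm2 had r = 0.74 but rho = 0.42. Over all tested loci the median r with Cdkn1a was -0.023, and 0.464% of loci reached the median r of the 9 genes, 0.85. As high an r as that of Phlda3 was found in 0.0263% of loci, and as high as that of Mdm2 in 1.59%. The weakest were Plk2 (r = 0.49) and Bax (r = 0.41, rho = 0.055), and these values of r were reached by 9.62% and 13.6% of loci.

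This relation rested in large part on 1 mouse. With untreated replicate 1 left out, r ran from 0.0037 for Bax to 0.84 for Phlda3. The median r of the 9 genes was then 0.69, which 3.25% of loci reached, against a median of 0.85 with all mice. When the 2 mice farthest from the median Cdkn1a deviation were left out (untreated replicate 1 and metformin replicate 5), r stayed positive in all 9 genes. Over the remaining 8 mice it was 0.92 for Phlda3, 0.87 for Ccng1, 0.84 for Plk2, 0.82 for Aen and 0.78 for Polk. It was lower for Eda2r (0.70), Zmat3 (0.51), Mdm2 (0.43) and Bax (0.25).

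Spread between mice depended on the measure used. The SD of log2(FPKM + 1) was larger in untreated Ncoa5+/- than in untreated wild type mice in 9 of 10 genes, against 49.5% of tested loci. It was larger in 8 genes without replicate 1, and in 7 under metformin, against 46.4% of loci. The pseudocount reduces this SD at low FPKM, where the wild type values of several members lie. By SD over mean, a measure added after the values were seen, the same 3 counts were 9, 6 and 6 genes. For Cdkn1a SD over mean was 1.08 against 0.34 in untreated mice and 0.36 against 0.27 in treated mice, and for Eda2r in treated mice it was 0.20 against 0.25.

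Outside the 10 genes, tested loci with a regular gene symbol were ranked by likeness to the members' mean standardized deviation over the 10 mice. The closest were Rhbdd2, Tbkbp1, Trim37, Icam1 and Dgkd. Their r was 0.98, 0.93, 0.93, 0.90 and 0.90, and with any 1 mouse left out it was at least 0.96, 0.91, 0.89, 0.87 and 0.87. They are shown because they ranked highest by the smallest r with 1 mouse left out, and no test is attached to them. Rhbdd2 was at 9.33 ± 1.33 FPKM in untreated Ncoa5+/- mice and 8.91 ± 1.38 FPKM in wild type mice (SD, n = 5 and 4). Tbkbp1, an adaptor of the kinase TBK1, was at 7.02 ± 1.10 against 4.98 ± 1.37 FPKM. Trim37 was lower on average in untreated Ncoa5+/- mice, at 3.13 ± 0.563 against 3.56 ± 0.165 FPKM. Icam1 was at 6.48 ± 1.25 against 5.90 ± 0.94 FPKM, and Dgkd at 6.48 ± 0.551 against 6.11 ± 0.655 FPKM.

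The gene of p53 itself, Trp53, was at 11.5 ± 1.66 FPKM in untreated Ncoa5+/- mice and 10.8 ± 0.563 FPKM in wild type mice at 39 weeks (SD, n = 5 and 4; log2 difference 0.066 ± 0.09, limma adjusted p = 0.946). At 20 weeks it was at 8.46 ± 1.28 against 8.40 ± 0.574 FPKM. A list of 15 genes held regulators of p53 together with Trp53 itself, Trp63 and Trp73. Of the list 8 were tested in each cohort, Trp53 among them, and none was called by limma in any comparison. In the metformin contrast of Ncoa5+/- mice 1 had an unadjusted limma p under 0.05. The median log2 difference of the 8 tested genes in untreated mice at 39 weeks, Trp53 included, was -0.0056.

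Other p53 targets formed a list of 41 genes apart from the 10, of which 39 matched a locus at 39 weeks. Of these 29 were tested, of which 1 was called higher and 0 lower in untreated Ncoa5+/- mice, with 18 positive and a median of 0.035. The called gene was Ephx1, which encodes microsomal epoxide hydrolase and shares its locus with a predicted gene. It was at 843 ± 170 against 458 ± 56.1 FPKM (SD, n = 5 and 4), with values of 655 to 1074 and 390 to 506 FPKM (log2 difference 0.87 ± 0.17, limma adjusted p = 0.0394). The call held in 5 of 17 fits that each left out 1 mouse, with adjusted p up to 0.174. Every untreated Ncoa5+/- mouse was above every untreated wild type mouse in 3 of the 29 tested genes (Rps27l, Gdf15 and Ephx1) and in 2 of the 10 under the filter, Psrc1 and Tnfrsf10b. Those 2, named after their values were seen, have ratios of means in the range of the members. Psrc1, which encodes a microtubule-associated protein, was at 2 ± 1.06 against 0.151 ± 0.0437 FPKM, and the death receptor gene Tnfrsf10b at 0.591 ± 0.538 against 0.0657 ± 0.0454 FPKM (SD, n = 5 and 4). Both also had no overlap between treated genotypes. The property by which the members were chosen was thus not particular to them. At 20 weeks 28 were tested and 0 called by limma, 7 having an unadjusted p under 0.05. The smallest p-values were those of Trp53inp1 (0.99 ± 0.21), Btg2 (1.27 ± 0.35) and Fas (0.55 ± 0.17), each at a limma adjusted p of 0.603.

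With metformin 0 of the 29 other targets were called in either genotype, and 4 had an unadjusted limma p under 0.05 in each. In Ncoa5+/- mice the smallest p-values belonged to Dcxr (-0.42 ± 0.14), Fdxr (-0.29 ± 0.10) and Pml (-0.36 ± 0.15), with limma adjusted p from 0.454 to 0.527. In wild type mice they belonged to Sulf2 (-0.86 ± 0.30), Dcxr (-0.42 ± 0.17) and Gadd45a (-1.35 ± 0.57), with adjusted p from 0.383 to 0.483.

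In 3 libraries the 50 highest loci took over 70% of the FPKM sum: wild type replicate 4 at 20 weeks, and untreated replicate 3 and metformin replicate 5 of the Ncoa5+/- mice at 39 weeks. Without them the ratios of means between genotypes at 39 weeks ran from 1.63 to 25.8 in untreated mice (median 2.54, against 2.41 with all mice) and from 1.51 to 20.2 in treated mice (median 2.48, against 2.52). Of the 7 hepatocyte markers, Apoa1 and Ttr, and in some groups Cyp2e1, were listed at 0 in whole groups, which are failed estimates; the other markers were present. The summed FPKM of 5 cholangiocyte markers was 28.3 to 64.7 in untreated Ncoa5+/- mice and 18.5 to 38.2 in wild type mice at 39 weeks, and most of it was Spp1 (39.6 ± 14.2 against 23.2 ± 7.86 FPKM). Of the other cholangiocyte markers Sox9 was lower on average in Ncoa5+/- mice (1.67 ± 0.428 against 2.80 ± 2.59 FPKM) and Krt7 had the same mean (0.28 FPKM). The sum of 5 lymphocyte markers was 3.28 to 10.1 against 1.88 to 5.76 FPKM, and that of 5 endothelial markers 37.7 to 97.4 against 70.3 to 99 FPKM, lowest in Ncoa5+/- replicate 2. Proliferation markers (6 genes) summed to 5.43 to 8.78 against 3.95 to 7.51 FPKM, and the largest part was Rrm2. Rrm2 was lower on average in Ncoa5+/- mice (3.42 ± 1.14 against 3.88 ± 1.48 FPKM). Mki67, Top2a, Ccnb1, Cdk1 and Ccna2 were each higher on average in Ncoa5+/- mice, with ranges that overlapped. At 20 weeks the 5 Kupffer cell markers summed to 22.2 to 40.3 against 29.4 to 78.1 FPKM. The part of these cell types in the differences of the 10 genes was not tested.

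The 10 genes lie on 8 chromosomes (GRCm38.p5), so they are not 1 block of neighbours. Cdkn1a is at chr17:29090979-29100722 and Phlda3 at chr1:135766119-135769136, both on the plus strand and protein coding, with the same limits in both cohorts. An antisense locus, AC167363.2, overlaps Cdkn1a, and Gm45808 overlaps Bax on the same strand, so some reads of these genes could have been shared. The Polk locus was 61797 bases long at 39 weeks but 159479 bases at 20 weeks, where it also spans Col4a3bp on the opposite strand, and the 20-week values of Polk are uncertain for that reason.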

How the data were processed

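RNA from the livers of 25 mice was sequenced in 2 cohorts. Per the submitters' processing notes, reads were trimmed with Trimmomatic 0.33, aligned with TopHat2 to GRCm38.p5 and quantified with Cufflinks and Cuffnorm, whose versions are not given in the sources used here. The deposited values per mouse are FPKM, scaled within a cohort by the authors with Cuffnorm. For genotype at 20 weeks and for metformin in Ncoa5+/- mice at 39 weeks, the authors also deposited tables in Cuffdiff format with pooled FPKM, log2 fold changes, p-values, q-values and a test score, the last of which was not used. The scripts here read loci by symbol and analysed log2(FPKM + 1) with limma 3.58.1 in R 4.3.3 (lmFit, eBayes with trend), over loci with a cohort mean of at least 1 FPKM, with Benjamini-Hochberg adjustment over all of them and a threshold of 0.05. Each cohort had its own fit, of 2 groups in the younger and 4 in the older.

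Loci listed at 0 throughout 1 group but above 0 throughout another whose mean reached 1 FPKM were taken as failed estimates and removed (15 at 20 weeks, 14 at 39 weeks). Members under the filter were compared by exact permutation (scipy 1.17.1), and correlations are given without a test. The only exception is a count of relations with Cdkn1a past the threshold when single mice were left out, and no significance is read from it. No read counts were used, so depth is unknown and the spread between mice is the measure of precision. Whether reads were counted by strand is not given in the sources used here. The 10 genes, the gene lists and the tests were chosen with earlier results of these data known. The 10 genes were always named. Of the other p53 genes, those called were named, or else the 3 with the smallest p in a comparison, and for likeness 5 loci by their smallest leave-one-out correlation. The limma procedure was tested on simulated data. Alternatives were other pseudocounts, filters, normalizations and weights, keeping failed estimates, fitting the compared groups alone, and leaving out single mice or the libraries dominated by few loci; SD over mean as a measure of spread was added after seeing the data.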

Additional observations from a re-analysis of the deposited data

Results flagged for a closer look

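Among 50 groups of values (10 genes in the groups of 4 or 5 mice), 7 held a mouse whose distance to its nearest neighbour took up most of the range of the group, by Dixon's criterion at 95%. For normally distributed values chance flags about 1 in 20 such groups, and the 10 genes of 1 mouse are not independent of each other. Distances were taken on FPKM, where a high value stands out more than in log2(FPKM + 1), so the flags depend on the scale. In the untreated Ncoa5+/- group at 39 weeks the mouse was replicate 1 in 4 genes: Cdkn1a at 117 FPKM, Phlda3 at 45.1 FPKM, Eda2r at 6.24 FPKM and Mdm2 at 22.1 FPKM. At 20 weeks Eda2r stood apart in Ncoa5+/- replicate 1 at 2.31 FPKM, and Cdkn1a in wild type replicate 3 at 1.08 FPKM. In the metformin-treated Ncoa5+/- group Polk was low in replicate 4, at 1.12 FPKM. The origin of these values was not tested.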

How the results depend on the processing

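None of the tested comparisons called any of the 10 genes under any alternative that was run, the smallest adjusted p being 0.073 at 20 weeks, 0.325 and 0.44 for metformin in Ncoa5+/- and wild type mice, and 0.862 for the difference between genotypes in the metformin effect. Counts over all loci moved more. At 20 weeks 13 loci passed with failed estimates kept at 0 and 4 without the libraries dominated by few loci, and 0 to 4 when single mice were left out (4 without wild type replicate 4). In untreated mice at 39 weeks 11 loci passed when the compared groups were fitted alone, and 18 to 28 without single mice, fewest without wild type replicate 2. For the difference in metformin effect 2 loci passed with no filter, 5 with failed estimates kept and 0 to 1 without single mice; for metformin in Ncoa5+/- mice 4 with failed estimates kept; for metformin in wild type mice 2 with no filter, 2 with failed estimates kept and 0 to 1 without single mice. At 20 weeks the genes without overlap numbered 2 without the libraries dominated by few loci and 0 to 3 without single mice, 3 without Ncoa5+/- replicate 2. Leaving out a mouse can only remove overlap, for any locus, and no share over all tested loci is given for these smaller sets. Nothing about the 10 genes in particular is therefore read from these counts without overlap. Relations with Cdkn1a past the threshold numbered 1 to 8 without single mice, 1 without untreated Ncoa5+/- replicate 1. The mice of these relations are those whose levels chose the members. The count therefore only shows dependence on single mice, and no significance of a relation is read from it.

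Signs turned only in differences that had not passed. In the difference between metformin effects, Cdkn1a was 0.33 with a pseudocount of 0.1, and Zmat3 was -0.0035 with a pseudocount of 5 and -0.016 without the libraries dominated by few loci; in wild type mice the metformin difference of Phlda3 was -0.0087 after quantile normalization. Without single mice, the difference between metformin effects ran from -0.015 to 0.36 for Ccng1, -0.31 to 0.41 for Cdkn1a, -0.24 to 0.0016 for Mdm2 and -0.11 to 0.17 for Zmat3. Metformin in Ncoa5+/- mice ran from -0.22 to 0.071 for Aen, -0.29 to 0.084 for Ccng1, -0.16 to 0.20 for Eda2r, -0.12 to 0.073 for Mdm2 and -0.19 to 0.033 for Zmat3. Metformin in wild type mice ran from -0.19 to 0.00044 for Bax, -0.032 to 0.18 for Mdm2, -0.07 to 0.12 for Phlda3 and -0.25 to 0.019 for Zmat3. The pseudocount set the size of log2 differences of low genes: in untreated mice Eda2r stood at 2.67 with 0.1 and 0.54 with 5. The cause of the other moves was not tested. No paired analysis was possible because the labels give no replicate numbers that link mice across groups.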
